A study of Mus musculus with 9 samples.

Results

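The genes described here are 10 genes of mitochondrial fatty acid oxidation, chosen by name (Cpt1a, Cpt1b, Cpt2, Acadvl, Acadl, Acadm, Hadha, Hadhb, Acaa2 and Etfdh), among 16937 genes listed in the deposited tables. All 10 were listed and tested in each of the 3 comparisons. They were measured by RNA sequencing in brown adipose tissue (BAT) of adult C57Bl/6J mice, reared at 23 °C, housed singly and collected at 1 time of day. The 3 groups of 3 mice were wild-type mice kept at 23 °C (WT RT), wild-type mice moved to 4 °C for 8 h (WT Cold) and mice with a whole-body Gcn2 knockout moved to 4 °C for 8 h (GCN2 KO Cold). GCN2, encoded by Eif2ak4, is a kinase that senses amino acid shortage. The study used male and female mice, and the sex behind each library was not used here. No GCN2 KO group at 23 °C was analysed, so the effect of cold could not be compared between genotypes.

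Brown adipocytes burn fatty acids to make heat. In this pathway carnitine palmitoyltransferase 1 (CPT1, made from Cpt1a or Cpt1b) loads long-chain fatty acids onto carnitine at the outer mitochondrial membrane, and CPT2 (Cpt2) unloads them inside. Acyl-CoA dehydrogenases for very long (Acadvl), long (Acadl) and medium chains (Acadm) then start each round of beta-oxidation, the trifunctional protein (alpha subunit from Hadha, beta subunit from Hadhb) and a thiolase (Acaa2) complete it, and electron transfer flavoprotein dehydrogenase (Etfdh) passes the electrons to the respiratory chain. Malonyl-CoA blocks CPT1, which makes its synthesis a control point of the pathway.

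The libraries held 27058799 to 30768064 reads assigned to the listed genes. Letters A to C name the libraries of each group. The targeted gene did not follow the genotype label, since Eif2ak4 had normalized counts of 347.0, 371.3 and 350.0 in the 3 GCN2 KO-labelled libraries and 170.7, 225.2 and 230.9 in WT Cold. This difference (log2 fold change 0.78, SE 0.15) had an adjusted p of 0.0932 in limma and 0.0028 in DESeq2. A gene-level count does not show which exons were read, so it checks the label only where the allele removes the transcript. These libraries are therefore named by their label, as GCN2 KO-labelled. The title of 1 of these 3 samples also names both genotypes. The 10 brown adipocyte markers summed to 7897 to 9485 CPM (reads scaled to the total of their library) in WT RT, 13594 to 15206 CPM in WT Cold and 16550 to 16834 CPM in the GCN2 KO-labelled libraries, Ucp1 included. Ucp1 made up much of each sum, with means of 4543, 8609 and 9578 CPM in the same order. In WT Cold against WT RT 7 of the 10 markers had fold changes above 0 and 3 below. Of these, 6 were called higher and 1 lower in limma, beside 13.6% and 14.1% of all genes. The 5 general adipocyte markers summed to 14765 to 15046, 14953 to 16456 and 16807 to 17638 CPM in the same order, although 3 of the 5 had fold changes below 0 in each comparison with WT RT (medians -0.17 and -0.13). The 5 haemoglobin and heme synthesis genes used as erythroid markers summed to 260.3 to 344.7 CPM in WT RT and 572.1 to 2279 CPM in the cold libraries. The 8 immune markers summed to 320.3 to 505.9 CPM in WT RT and 119.6 to 213.7 CPM in the cold libraries. The 4 endothelial markers summed to 476.3 to 529.2 CPM in WT RT, 560.3 to 694.5 CPM in WT Cold and 449.5 to 550.5 CPM in the GCN2 KO-labelled libraries. The 19 skeletal muscle markers summed to 3047 to 3706 CPM in WT RT, 2882 to 4835 CPM in WT Cold and 396.5 to 1639 CPM in the GCN2 KO-labelled libraries. Mitochondrially encoded genes took 17.9 to 18.5% of reads in WT RT, 19.9 to 21.9% in WT Cold and 22.7 to 24.4% in the GCN2 KO-labelled libraries. The part of these differences in the results below was not tested. WT RT library codes start with other letters than the codes of the cold libraries, so temperature and any difference in handling between those sets cannot be told apart.

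Together the 10 genes took between 1.29 and 1.48% of all reads. Their summed level was 14332, 13526 and 14537 CPM in WT RT, 13916, 12929 and 13357 CPM in WT Cold, and 13470, 14835 and 13980 CPM in the GCN2 KO-labelled libraries. The ranges of the 3 groups overlapped.

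Levels of different genes were compared as CPM per kilobase of exon (GENCODE M21), averaged over the 9 libraries. Acadl was the most abundant at 1230, followed by Acaa2 at 941.7, Acadm at 584.5, Acadvl at 528.6, Hadhb at 429.4, Hadha at 227.9, Cpt2 at 168.8 and Etfdh at 123.1. The lowest values were those of the CPT1 genes, with Cpt1b at 22.3 ± 2.21 (SD, n = 9) and Cpt1a at 6.76 ± 1.20 (SD, n = 9) CPM per kilobase. Each gene was above the next in 9 of 9 libraries, but the ranges over libraries overlapped for Acadm and Acadvl, for Hadha and Cpt2, and for Cpt2 and Etfdh. The order rests on the length used. With the longest transcript in place of all exon bases, Acadm (1117) stood above Acaa2 (941.7) and Etfdh (247.0) above Cpt2 (170.2), while Acadl stayed first and the CPT1 genes last. The place of Cpt1b is uncertain, because 81.4% of its exon bases are shared with another gene model (described at the end) and reads there may not have been counted. Were all its reads from the 628 unshared bases, its level would be 119.7 CPM per kilobase, near that of Etfdh.

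**Figure D1:**
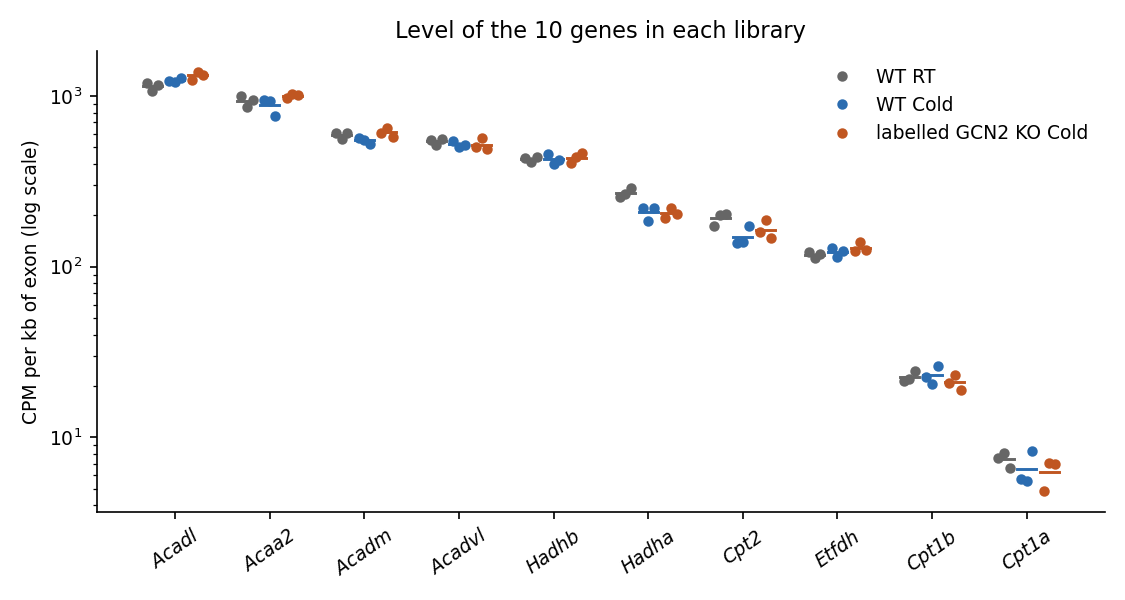
Level of each of the 10 genes in each of the 9 libraries, as CPM per kilobase of exon on a log axis. Each point is 1 library, short lines are group means, and colours mark WT RT, WT Cold and the GCN2 KO-labelled libraries. The points of a gene lie close together across groups, while the genes span from 1230 for Acadl to 6.76 for Cpt1a.

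Acadm and Etfdh both lie on chromosome 3, and the genes of the trifunctional protein lie together on chromosome 5. On GRCm38, Hadha (ENSMUSG00000025745, chr5:30118304-30155162, minus strand) and Hadhb (ENSMUSG00000059447, chr5:30155248-30184593, plus strand) sit head to head, so that both subunit genes of the trifunctional protein start from the same short stretch. Only 85 bases separate the starts of the GENCODE M21 gene models, and 272 bases separate the RefSeq starts. The stretch between the GENCODE starts is shown because the ratio of this pair is described below. It is printed on the plus strand (chr5:30155163-30155247, GRCm38.p6), with both GC boxes, the letters GGGCGG that transcription factors of the SP family bind, in capitals.
Hadha-Hadhb: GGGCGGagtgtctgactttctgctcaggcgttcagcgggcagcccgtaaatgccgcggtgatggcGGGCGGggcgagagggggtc
Acadl (ENSMUSG00000026003, chr1:66830839-66863277, minus strand), the most abundant of the 10 genes per kilobase, had 4 GC boxes in the 100 bases before its RefSeq start (chr1:66863310-66863409, minus strand), read here as CCGCCC because they lie on the other strand.
Acadl: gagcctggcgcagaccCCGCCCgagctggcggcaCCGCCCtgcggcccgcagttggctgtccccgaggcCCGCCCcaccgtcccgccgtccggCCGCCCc
RefSeq start windows of 250 bases before to 50 after the start were used for 8 of the 10 genes, not for Cpt1b or Acaa2. With both strands searched, GGGCGG occurred in 6 of these 8 windows, against 35.7% of 32851 windows of all genes. The windows of Hadha and Hadhb overlap, and the match in the Hadha window is also one of those counted for Hadhb. The nuclear receptor half-site AGGTCA occurred in 3 of 8 (Acadm, Acadvl and Cpt1a), against 16.3% of all windows. The estrogen-related receptor element TCAAGGTCA, which contains the half-site, occurred in 0 of 8 windows (0.423% of all), the cAMP response element TGACGTCA in 0 of 8 (1.79%), and a pair of half-sites spaced by 1 base with at most 2 mismatches in 0 of 8 (3.86%). These counts describe the letters of the windows alone.

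The first comparison, WT Cold against WT RT, asks what 8 h of cold did to the transcripts in wild-type BAT. None of the 10 fatty acid oxidation genes passed limma's adjusted p threshold of 0.05 in either direction, where 13.6% of 16679 genes were called higher and 14.1% lower. DESeq2 and edgeR, run on the recovered reads, also called 0 of 10, and 1 of 10 had an unadjusted p under 0.05, as 6819 of 16679 genes in all did. The log2 fold changes lay between -0.29 and 0.20 with 5 above 0 and 5 below, and their median was 0.010 beside 0.0029 over all genes. The signs of Acadvl and Hadhb turned with total-count (CPM) scaling. The 95% intervals of the 10 genes lay within -0.58 to 0.42, so that each left out the study's fold threshold of 1 on the log2 scale, which 8.14% of genes passed together with the adjusted p. In bulk tissue, fewer cells of a type and less RNA per cell cannot be told apart.

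Both genes whose libraries did not overlap between these groups, against 45.5% of all genes, are described first. Hadha had normalized counts of 57096, 49262 and 59792 in WT Cold and 63017, 64680 and 75189 in WT RT. Its highest WT Cold library lay below its lowest WT RT library (log2 fold change -0.29, SE 0.11, 95% interval -0.55 to -0.030, limma adjusted p = 0.0918). With total-count scaling the log2 fold change was -0.37 with an adjusted p of 0.0234, and with that scaling over nuclear-encoded genes alone -0.32 and 0.0384, so the call for Hadha depended on the scaling. Acadl had 72776, 73042 and 79728 normalized counts in WT Cold and 67504, 59601 and 69236 in WT RT. All WT Cold libraries of Acadl were above all WT RT libraries, by 0.20 on the log2 scale (SE 0.096, adjusted p = 0.1542 in limma).

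Of the carnitine palmitoyltransferase genes, Cpt2 had 9738, 10056 and 12871 normalized counts in WT Cold and 11661, 13305 and 14589 in WT RT (log2 fold change -0.28, SE 0.13, limma adjusted p = 0.1404). WT Cold library C stood above the other two for this gene and reached into the WT RT range. With total-count scaling Cpt2 passed the threshold (log2 fold change -0.37, limma adjusted p = 0.0431) and its libraries did not overlap, while over nuclear-encoded genes alone its adjusted p was 0.0786. Cpt1a had 1298, 1285 and 1984 against 1643, 1736 and 1522 (log2 fold change -0.13, SE 0.17, adjusted p = 0.5913 in limma). Here too library C of WT Cold stood apart, above all WT RT libraries, while the other two lay below them. Without that library, Cpt1a and Cpt2 passed the threshold (limma adjusted p = 0.0215 and 0.0197, log2 fold change -0.34 and -0.41), and 2 of the 10 genes were called, while calls over all genes went from 4624 to 5679. Cpt1b had 2271, 2109 and 2764 against 2026, 2062 and 2489 normalized counts, with overlapping groups (log2 fold change 0.12, SE 0.12, adjusted p = 0.5221 in limma).

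The remaining genes of the spiral differed little. Acadm had 65710, 65877 and 64259 normalized counts in WT Cold and 67030, 61450 and 71275 in WT RT (log2 fold change -0.026, SE 0.088). Acadvl (0.025, SE 0.087), Hadhb (0.080, SE 0.096), Acaa2 (-0.0054, SE 0.11) and Etfdh (0.14, SE 0.083) had log2 fold changes with limma adjusted p between 0.2569 and 0.9755. Their groups overlapped.

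**Figure D2:**
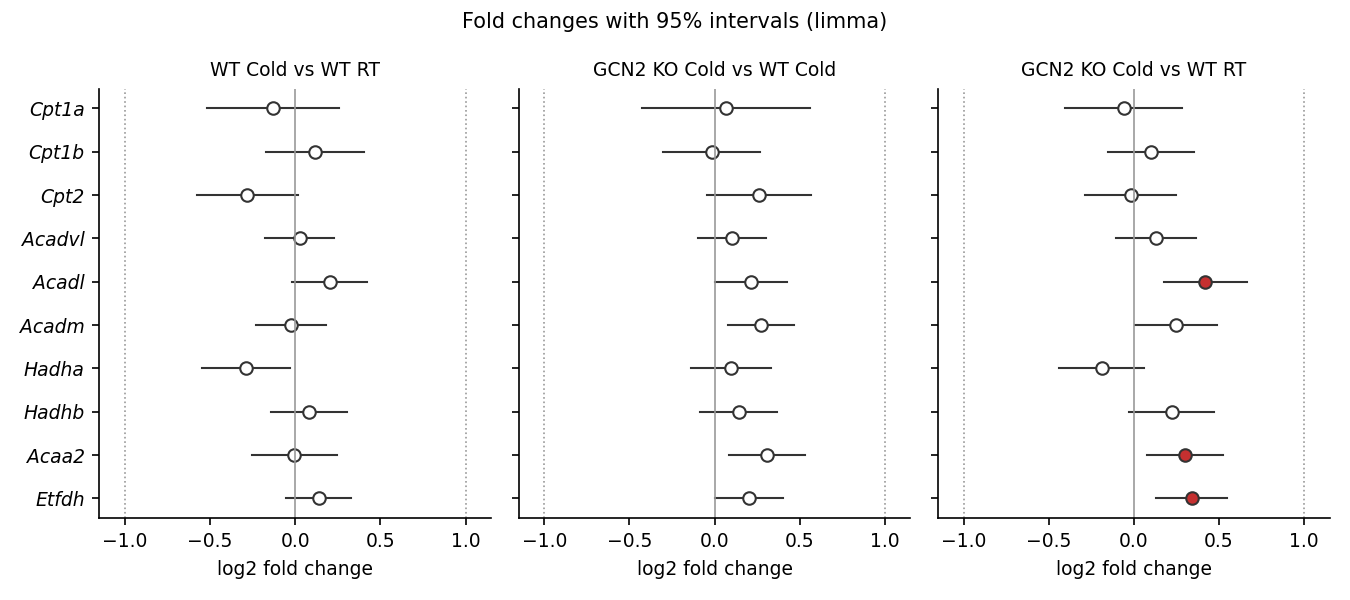
Log2 fold change of each of the 10 genes with its 95% interval from limma in the 3 comparisons, first-named group minus second. Filled points passed an adjusted p of 0.05, dotted lines mark the study's fold threshold, and "GCN2 KO Cold" is the label. Filled points are Acadl, Acaa2 and Etfdh in the comparison with WT RT, and each interval lies inside the dotted lines.

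The reads of Hadha and Hadhb were also compared with each other. Hadhb had 81117, 75409 and 86272 normalized counts in WT RT and 89944, 79917 and 86710 in WT Cold, which overlapped, while Hadha was lower in each WT Cold library. Their ratio within a library needs no scaling between libraries. The number of Hadhb reads per Hadha read was 1.287, 1.166 and 1.147 in WT RT, 1.575, 1.622 and 1.450 in WT Cold and 1.569, 1.505 and 1.718 in the GCN2 KO-labelled libraries. Both cold groups lay wholly above WT RT and overlapped each other. Group means were 1.20 ± 0.076, 1.55 ± 0.089 and 1.60 ± 0.11 (SD, n = 3). The log2 difference was 0.37 for WT Cold minus WT RT and 0.41 for the GCN2 KO-labelled libraries minus WT RT, each with an exact two-sided permutation p of 0.1, the smallest that 3 against 3 libraries can give. Between the cold groups it was 0.043 (exact permutation p = 0.6). This pair was singled out after its values were seen. Among the 45 ratios between any pair of the 10 genes, the groups did not overlap for 15 in WT Cold against WT RT, 6 between the cold groups and 24 for the GCN2 KO-labelled libraries against WT RT, and ratios that share a gene are not independent. No share over ratios of other genes was computed, so nothing is read from these counts about the 10 genes. The shift of Hadha was not particular to its pair with Hadhb. In WT Cold against WT RT the log2 ratio to Hadha also rose without overlap for Acadl (0.49), Cpt1b (0.40), Acadvl (0.31) and Acadm (0.26). Hadha per Etfdh fell (-0.43), and the ratios of Hadha with Cpt1a, Cpt2 and Acaa2 overlapped. Acadl per Acadm, a pair of dehydrogenases with neighbouring chain lengths, also separated, with 1.007, 0.970 and 0.971 in WT RT and 1.108, 1.109 and 1.241 in WT Cold. The balance of the CPT1 genes did not separate, since Cpt1b per Cpt1a was 1.35 ± 0.25 in WT RT and 1.59 ± 0.18 in WT Cold (SD, n = 3, exact permutation p = 0.2).

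**Figure D3:**
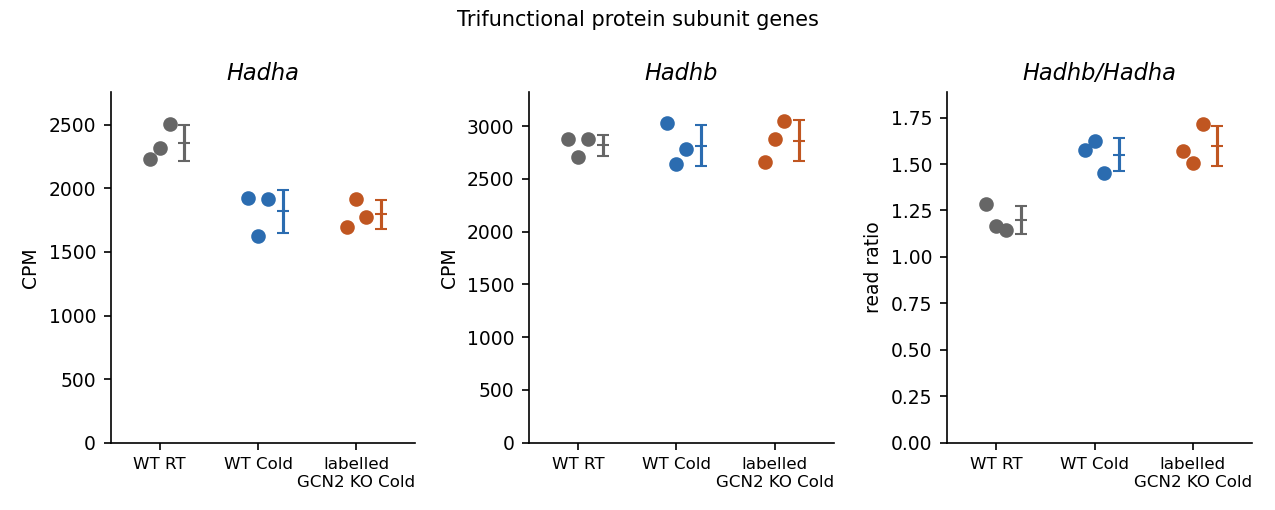
CPM of Hadha and Hadhb and the ratio of their reads in each library, with the group mean and SD (n = 3) beside the points and every axis starting at 0. WT RT libraries lie above both cold groups for Hadha, overlap them for Hadhb, and lie below them for the ratio, at 1.147 to 1.287 against 1.450 to 1.718.

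The second comparison, the GCN2 KO-labelled libraries against WT Cold, asks what the genotype changed in the cold. None of the 10 genes passed limma's threshold, where 0.178% of 16312 genes were called higher and 0.227% lower. DESeq2 and edgeR also called 0 of 10, and 4 of 10 had an unadjusted p under 0.05 (2500 of 16312 genes in all). Calls past the fold threshold as well made up 0.257% of genes, and none of the 10 was among them. The fold changes were above 0 for 9 of the 10 genes, with a median of 0.17 beside -0.0031 over all genes, and the signs of Cpt1a, Acadvl and Hadha turned with total-count scaling, which shifted the median of all genes to -0.12 and that of the 10 genes to 0.054. Libraries did not overlap for 5 of the 10 genes, each higher in the GCN2 KO-labelled libraries, against 22.0% of all genes in either direction. On the CPM scale Acaa2 and Acadm still separated, while the libraries of Acadvl, Acadl and Etfdh overlapped. The 95% intervals lay within -0.43 to 0.57. The brown adipocyte markers lay in the same direction, with 8 of 10 fold changes above 0, a median of 0.24 and 6 whose libraries did not overlap, and their part in these values was not tested.

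In the fit of all libraries, the widest differences were those of the last enzyme of the spiral and of the medium-chain dehydrogenase. Acaa2 had 43223, 45550 and 45170 normalized counts in the GCN2 KO-labelled libraries and 38019, 38659 and 32059 in WT Cold. It was higher in 3 of 3 libraries, by 0.31 on the log2 scale (SE 0.095, 95% interval 0.083 to 0.53), with an adjusted p of 0.1993 in limma and 0.1373 in DESeq2. Acadm had 69042, 74969 and 66900 against 58397, 58942 and 57080 (log2 fold change 0.27, SE 0.084, adjusted p = 0.1949 in limma and 0.0923 in DESeq2). Acadl (0.21, SE 0.090), Etfdh (0.20, SE 0.085) and Acadvl (0.10, SE 0.085) also had libraries that did not overlap, with limma adjusted p of 0.3151, 0.3217 and 0.6199. WT Cold library C was the lowest of its group for Acaa2. Without it the log2 fold change was 0.22 for Acaa2, 0.26 for Acadm and 0.39 for Cpt2.

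The other 5 genes had overlapping libraries. Cpt2 had 11175, 13146 and 10431 normalized counts against 8654, 8997 and 11433 (log2 fold change 0.26, SE 0.13, limma adjusted p = 0.4095). Hadhb (0.14, SE 0.097) and Hadha (0.098, SE 0.10) had adjusted p of 0.5508 and 0.7024 in limma. Cpt1a had a log2 fold change of 0.068 (SE 0.21, adjusted p = 0.9123 in limma). Cpt1b, the isoform known from muscle, had 2049, 2313 and 1903 normalized counts against 2018, 1887 and 2456 (log2 fold change -0.017, SE 0.12, limma adjusted p = 0.9645). All 19 skeletal muscle markers had a log2 fold change below 0 in the same comparison (median -2.02), of which Myh7 (-3.34) and Tnnc1 (-3.05) were called, and the libraries of all 19 did not overlap. Their part in the Cpt1b values was not tested.

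The third comparison set the GCN2 KO-labelled libraries against WT RT, with temperature and genotype differing at once. It shares its libraries with the other comparisons and is no independent evidence beside them. By limma's adjusted p 3 of the 10 genes rose (Acadl, Etfdh and Acaa2) and 0 fell, where 16.4% of 16560 genes were called higher and 17.8% lower. None of the 10 passed the fold threshold as well, which 10.6% of genes did. Libraries did not overlap for 5 genes (Acadl, Acadm, Hadhb, Acaa2 and Etfdh, each higher), against 49.2% of all genes. On the CPM scale Acadl and Etfdh remained separate, Acadm, Hadhb and Acaa2 overlapped, and Hadha separated as lower, with 1695, 1915 and 1772 CPM against 2233, 2320 and 2508 in WT RT. The median log2 fold change of the 10 genes was 0.18 beside 0.0091 over all genes. With total-count scaling these medians were -0.026 and -0.19, and the signs of Cpt1b and Acadvl turned.

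Acadl, the long-chain dehydrogenase, rose most, from 63608, 56205 and 65313 normalized counts in WT RT to 77215, 86926 and 83008 (log2 fold change 0.42, SE 0.11, 95% interval 0.18 to 0.66). Its adjusted p was 0.0170 in limma, 0.0101 in edgeR and 0.0004 in DESeq2. Etfdh rose from 24215, 22292 and 25197 to 28658, 32857 and 29244 (log2 fold change 0.34, SE 0.092, limma adjusted p = 0.0218). Acaa2 rose from 40367, 34462 and 40653 to 45801, 48518 and 47681 (log2 fold change 0.30, SE 0.097, limma adjusted p = 0.0430). These calls were near the threshold. Without GCN2 KO-labelled library B, or without WT RT library B, 0 of the 10 genes were called, and without WT RT library A 1 was, while calls over all genes went from 5657 to 5049, 4236 and 4220 of 16560. Over the 6 fits that each left out 1 library, Acadl was called in 4, Etfdh in 3 and Acaa2 in 0 (limma adjusted p 0.0507 to 0.1399 for Acaa2). With total-count scaling Acadl (0.22, adjusted p = 0.0892), Etfdh (0.14, 0.2103) and Acaa2 (0.099, 0.3806) missed the limma threshold.

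The other 7 genes did not pass. Acadm had a log2 fold change of 0.25 (SE 0.10, adjusted p = 0.1024 in limma and 0.0484 in DESeq2) and Hadhb of 0.22 (SE 0.11, limma adjusted p = 0.1488). Hadha had 52380, 59854 and 55353 normalized counts against 59379, 60995 and 70928 in WT RT (log2 fold change -0.19, SE 0.11, limma adjusted p = 0.2154), and with total-count scaling it passed the threshold as lower (-0.39, adjusted p = 0.0097). Acadvl (0.13), Cpt1b (0.10), Cpt1a (-0.061) and Cpt2 (-0.018) had limma adjusted p between 0.3533 and 0.9167.

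A further 24 genes linked to mitochondrial fatty acid oxidation were counted as a list, and not all of their products are mitochondrial. In WT Cold against WT RT 6 were called higher and 4 lower of 24, beside 13.6% and 14.1% of all genes, with a median log2 fold change of 0.11. Hsd17b10, a hydroxyacyl-CoA dehydrogenase that also serves isoleucine breakdown, rose by 1.04 (SE 0.12, limma adjusted p = 0.0010), from 3938, 2986 and 3420 to 6348, 7267 and 7553 normalized counts. Slc22a5, the carnitine importer of the cell membrane, rose by 0.60 (SE 0.098, limma adjusted p = 0.0045). Acad12 fell by 0.81 and Acad11 by 0.47 on the log2 scale (limma adjusted p = 0.0013 and 0.0269), both members of the acyl-CoA dehydrogenase family. Hadh, the short-chain hydroxyacyl-CoA dehydrogenase named here after its values were seen, fell from 33020, 28807 and 35128 to 24037, 23128 and 22745 normalized counts (log2 fold change -0.47, limma adjusted p = 0.0084). Etfa, a subunit of the flavoprotein that hands electrons to the Etfdh product and also named after its values were seen, rose from 38760, 36787 and 40988 to 48597, 51626 and 48193 (0.35, limma adjusted p = 0.0163). Leaving out WT Cold library B lowered the number called from 10 to 4, while over all genes it fell from 4624 to 2907. In the GCN2 KO-labelled libraries against WT Cold limma and edgeR called 0 of these 24 genes and DESeq2 1, with 7 at an unadjusted p under 0.05 in limma (2500 of 16312 genes in all). Over all genes of that comparison limma called 66, edgeR 44 and DESeq2 526. Against WT RT limma called 11 higher and 2 lower (median 0.26), beside 16.4% and 17.8% of all genes. Etfb, the other flavoprotein subunit, was among the 11 (0.68, SE 0.087, limma adjusted p = 0.0010), but 58.2% of its exon bases lie under other annotated genes.

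In WT Cold against WT RT each of the 3 genes of enzymes that set malonyl-CoA changed by more on the log2 scale than any of the 10 oxidation genes. Acaca, the acetyl-CoA carboxylase of fatty acid synthesis, had 67822, 69249 and 86250 normalized counts in WT RT and 19145, 14222 and 20491 in WT Cold. It fell by 2.06 on the log2 scale (SE 0.16, limma adjusted p = 0.0002). Acacb, the carboxylase found at the mitochondrial surface, fell from 29916, 31510 and 41164 to 20414, 15876 and 19667 (log2 fold change -0.87, SE 0.15, limma adjusted p = 0.0047). Mlycd, the decarboxylase that removes malonyl-CoA, rose from 3331, 3887 and 4324 to 6915, 6860 and 8191 (log2 fold change 0.93, SE 0.12, limma adjusted p = 0.0014). For all 3 genes the groups were far apart. The GCN2 KO-labelled libraries differed from WT RT by -1.81, -0.95 and 0.96, each past limma's threshold. Against WT Cold limma called none of the 3, where it called 66 of 16312 genes in all. None of the 3 had an unadjusted p under 0.05 in limma, beside 2500 of 16312 genes in all.

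**Figure D4:**
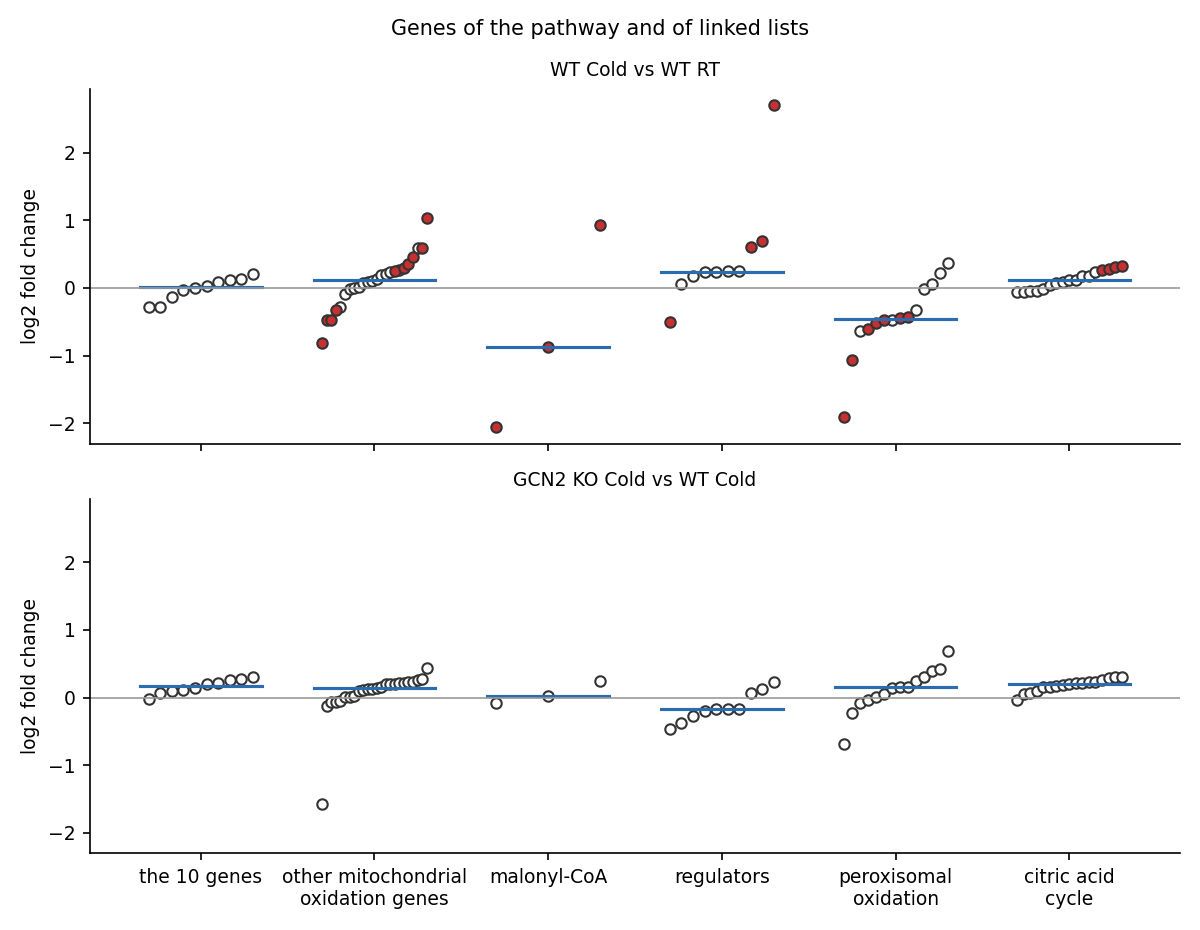
Log2 fold changes of the 10 genes and of linked lists in WT Cold against WT RT (top) and in the GCN2 KO-labelled libraries against WT Cold (bottom). Each point is 1 gene, filled where limma's adjusted p was under 0.05, and lines are list medians. The 10 genes cluster near 0 in the top panel while Acaca (-2.06) and Ppargc1a (2.70) lie far from it, and no point is filled in the bottom panel.

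Of 10 transcriptional regulators linked to these genes, 3 rose and 1 fell in WT Cold against WT RT, beside 13.6% and 14.1% of all genes. Ppargc1a, a coactivator of mitochondrial genes, had 1001, 1215 and 1723 normalized counts in WT RT and 11849, 6490 and 7491 in WT Cold (log2 fold change 2.70, SE 0.26, limma adjusted p = 0.0005). Esrra, an estrogen-related receptor, rose by 0.69 and Ppard, a fatty acid receptor, by 0.60 (limma adjusted p = 0.0055 and 0.0024). Ppara, the receptor best known for driving fatty acid oxidation genes, fell from 3547, 3443 and 3596 to 2555, 2242 and 2674 (log2 fold change -0.51, limma adjusted p = 0.0045). In the GCN2 KO-labelled libraries against WT RT, Ppargc1a (2.77), Esrra (0.93) and Ppard (0.43) were called higher and Ppara (-0.88) lower, beside 16.4% and 17.8% of all genes. Against WT Cold limma called 0 of 10 regulators, where it called 66 of 16312 genes in all. An unadjusted p under 0.05 was found for 3 of the 10, beside 2500 of 16312 genes in all. Ppargc1a varied widely there, with 6601, 4641 and 15161 normalized counts in the GCN2 KO-labelled libraries. Of 8 genes outside the pathway that peroxisome proliferator-activated receptors are known to drive, Fabp3, a fatty acid carrier, was called higher in WT Cold (1.70, limma adjusted p = 0.0002) and 0 lower, beside 13.6% and 14.1% of all genes. Of the 8 fold changes 5 were below 0, with a median of -0.24. In the GCN2 KO-labelled libraries against WT RT, Fabp3 was called higher (1.89) and Vnn1 (-1.14), Pdk4 (-0.79) and Angptl4 (-0.74) lower, beside 16.4% and 17.8% of all genes.

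Oxidation of fatty acids in peroxisomes, a separate chain-shortening route, had 0 of 14 genes called higher and 7 lower in WT Cold against WT RT, beside 13.6% and 14.1% of all genes, with a median of -0.45. The summed level of the 14 genes was 3219, 3007 and 4365 CPM in WT Cold and 3866, 3807 and 3770 CPM in WT RT. By that sum WT Cold library C lay above all WT RT libraries. Abcd2, a peroxisomal fatty acid transporter, fell by 1.90 and Crot, which makes acylcarnitines for export to mitochondria, by 1.07 on the log2 scale (limma adjusted p = 5.3e-05 and 0.0216). Acox3, a peroxisomal acyl-CoA oxidase, was also lower (-0.51, limma adjusted p = 0.0220). The citric acid cycle, which takes up the acetyl-CoA of beta-oxidation, had 4 of 17 genes called higher (Idh3a 0.32, Mdh2 0.30, Sdhb 0.28 and Fh1 0.27) and 0 lower, beside the same shares of all genes, with a median of 0.11. In the GCN2 KO-labelled libraries against WT Cold 0 of 14 and 0 of 17 passed limma's threshold, where 66 of 16312 genes in all did. An unadjusted p under 0.05 was found for 2 and 9 of them, beside 2500 of 16312 genes in all. The medians were 0.15 and 0.20, beside 0.17 for the 10 genes. In those libraries against WT RT the peroxisomal list had 1 gene called higher and 5 lower (median -0.26), and the citric acid cycle 10 higher and 0 lower (median 0.32), beside 16.4% of all genes higher and 17.8% lower. These medians use the size factors of the table, and total-count scaling shifts all genes there by the amount given above.

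The spread between mice was given by the coefficient of variation within a group. Its median over the 10 genes, on CPM, was 5.84% in WT RT, 8.14% in WT Cold and 6.93% in the GCN2 KO-labelled libraries, and Cpt1a had the highest in each group (10.2, 23.9 and 19.9%). The 10 genes did not move as one across the 9 libraries. Of their 45 pairwise Pearson correlations of log2(CPM + 1), 29 were above 0, with a median of 0.21 and a range from -0.61 (Cpt1b with Acaa2) to 0.84. Averaged as z scores, the 10 genes were highest in GCN2 KO-labelled library B (0.94) and lowest in WT Cold library B (-0.86). Of 8598 other genes with a mean of at least 10 CPM, those whose levels correlated best with this average were Mccc1 (Pearson r = 0.90), Cdip1 (0.89), Cad (0.86), Med22 (0.83), Ndufs1 (0.83), Dhrs4 (0.81), Dlst (0.79), Mrps27 (0.78), Gm44250 (0.78) and Gpt (0.78). These correlations describe 9 libraries that share groups and scaling.

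Overlapping annotation limits the counts of a few genes. For Cpt1b (ENSMUSG00000078937, chr15:89416405-89425863, minus strand), 81.4% of exon bases in GENCODE M21 also belong to Gm44502, a read-through gene model on the same strand, and reads that fall on both may have been left out of the Cpt1b count. For Acadvl (ENSMUSG00000018574, chr11:70010183-70015411, minus strand) 42.9% of exon bases lie opposite Dvl2, and the sources used here do not say whether strand was used in counting. The shares were 3.70% for Etfdh and 0.859% for Hadha, and 0 for the other 6 genes.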

How the data were processed

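Poly(A)-selected RNA from brown adipose tissue of 9 mice (3 groups of 3) was sequenced in the study, and per the submitters' processing notes reads were trimmed with Trimmomatic 0.36, aligned with STAR 2.5.2b to GRCm39 and counted with featureCounts (Subread 1.5.2). The deposited signal values are gene counts that the authors divided by DESeq2 size factors within each of 3 pairwise tables. Their own fold changes and p-values, also in the tables, were not used. Because the tables were normalized separately, the same library has other normalized counts in each, and tests stayed within a table.

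Whole reads were recovered for 100% of values (tolerance 0.001), which gave depth and CPM. Genes in the tables had at least 61 reads over 6 libraries, and no further filter was applied. Each table was fitted with limma 3.58.1 (R 4.3.3, mean-variance trend) on log2(normalized count + 1) over all its genes, with Benjamini-Hochberg adjustment over all of them and a call at adjusted p under 0.05. Fold changes are on that scale. DESeq2 1.42.0 and edgeR 4.0.16 (quasi-likelihood) were run on the recovered reads as alternatives. Other alternatives were the pseudocount, a count minimum, the trend, CPM and TMM scaling, 1 fit over the 3 groups and leaving out each library. Scripts were tested on simulated data.

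Columns carry library codes that name no sample. The group of a code was read from which pairwise tables hold it, and libraries carry letters. The labels number biological replicates, so the tests weigh group differences against the spread between mice of a group. The study states that its groups held both sexes. No library pair of a group agreed within sampling noise (chi-square per gene 20.2 to 63.0). Lengths and coordinates come from GENCODE M21 (GRCm38), not the build of the files, in which 16900 of 16937 gene identifiers were found. Start windows come from RefSeq (GRCm38.p6). The genes, lists and tests were chosen with earlier results of these data known. Named genes were the 10 genes, Eif2ak4, up to 4 called genes with the largest fold change per other list and comparison (any gene of lists of at most 10), and the 10 most alike in profile. Hadh and Etfa fall outside this rule and were named after their values were seen. The values of 1 gene that this rule names are not reported here.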

Additional observations from a re-analysis of the deposited data

How the results depend on the processing

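No paired analysis was possible because the columns carry no replicate numbers. With CPM scaling, and with 1 fit of all 3 groups on CPM, 2 of the 10 genes were called in WT Cold against WT RT and 1 in the GCN2 KO-labelled libraries against WT RT, and the medians of the 10 genes were -0.074 and -0.026 (0.054 against WT Cold), beside -0.081 and -0.19 over all genes with CPM, where 4475 and 6306 genes were called (4680 and 6371 in the 3-group fit). CPM over nuclear-encoded genes alone, added after seeing the data, called 1 in WT Cold against WT RT and gave a median of 0.066 against WT RT. Without limma's trend 1 of the 10 genes was called against WT RT, where 4779 of 16560 genes in all were. In WT Cold against WT RT 5 of the other pathway genes were called without the trend, while calls over all genes went from 4624 to 3521 of 16679. With the fold threshold 0 of the 10 genes were called against WT RT. In the cold comparison the 3-group fit and DESeq2 called 1 of the other pathway genes. Leaving out 1 library gave 0 to 2 called genes in WT Cold against WT RT, with medians of -0.057 to 0.059 and 4 to 12 other pathway genes, 0 to 2 called genes against WT RT (medians 0.12 to 0.23), and 0 in the cold comparison (medians 0.13 to 0.24). Over all genes these fits called 2907 to 5679, 4220 to 5261 and 3 to 24 genes, in the same order. Over all genes of the cold comparison the calls numbered 66 in the reported fit, 6 without trend, 427 in the 3-group fit, 44 in edgeR and 526 in DESeq2.

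Fold changes that turned sign had not been called. In WT Cold against WT RT these were Acadvl (-0.059 with CPM and the 3-group fit, -0.0078 with nuclear CPM, and -0.031 to 0.083 without 1 library), Acadm (-0.083 to 0.024 without 1 library), Hadhb (-0.0043 with CPM and the 3-group fit) and Acaa2 (-0.083 to 0.079 without 1 library). In the cold comparison they were Cpt1a (-0.049 with CPM and the 3-group fit, -0.0083 with nuclear CPM, and -0.036 to 0.27 without 1 library), Cpt1b (-0.097 to 0.093 without 1 library), Acadvl (-0.013) and Hadha (-0.019), both with CPM and the 3-group fit. Against WT RT they were Cpt1a (-0.16 to 0.12 without 1 library), Cpt1b (-0.10 with CPM and the 3-group fit, -0.011 with nuclear CPM), Cpt2 (-0.12 to 0.058 without 1 library) and Acadvl (-0.072 with CPM and the 3-group fit). The cause was not tested.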
